A study of Homo sapiens with 3 samples.

Results

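Vimentin (VIM), fibronectin (FN1), N-cadherin (CDH2), E-cadherin (CDH1) and the transcription factors SNAI1, SNAI2, ZEB1, ZEB2 and TWIST1 were followed in Caki-1 renal carcinoma cells after depletion of RBCK1. These 9 genes, of 44591 in the table, were chosen by name, with their log2 ratios in these same libraries already known. Their values are therefore a description, and no test was made on them. The gene table held all 9, and 8 reached an average of 1 RPKM (reads scaled by gene length and library total) over the 3 libraries. CDH1 did not reach that level.

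Caki-1 is an established human cell line labelled clear cell renal cell carcinoma, and the methods describe it as carrying wild-type p53. RBCK1, also called HOIL-1, is an E3 ubiquitin ligase and a member of the linear ubiquitin chain assembly complex. RNA was sequenced 48 h after transient transfection with a non-targeting siRNA (si-Control) or with 1 of 2 siRNAs to RBCK1 (si-RBCK1 #1 and si-RBCK1 #2), which the sample records call si-HOIL-1#1 and si-HOIL-1#2. All 3 conditions shared the line and the transfection, and no untransfected cells were among the libraries. There was 1 library per condition, so none of the differences could be checked against replicates, and the siRNAs, as different reagents, were never averaged. Both comparisons share the si-Control library, so they are given side by side.

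Epithelial-to-mesenchymal transition (EMT) is the change by which epithelial cells loosen their junctions and gain the traits of motile, matrix-producing cells. SNAI, ZEB and TWIST proteins bind E-box sequences in DNA, and SNAI and ZEB proteins are known as repressors of CDH1, while the cells that lose E-cadherin often carry N-cadherin, vimentin and fibronectin. Kidney tubule cells arise from mesenchyme and are unusual among epithelia in that many normally carry N-cadherin and cadherin-6, and clear cell carcinomas of the kidney commonly express vimentin.

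The siRNA sequences are shown because each is a separate reagent whose off-target matches can be read from them. In the sense strands below, the capitals mark the letters that pair with guide positions 2 to 8, the guide's seed.
si-RBCK1 #1: ggtgcaccttcATCAACAa
si-RBCK1 #2: ggattaccagcGATTTCTa
Each sense strand was found whole in the longest protein-coding transcript of 1 gene, RBCK1 (2774 nt, GENCODE v29), at bases 1307 to 1325 for si-RBCK1 #1 and 1749 to 1767 for si-RBCK1 #2. The seed match of si-RBCK1 #1 stood in 23.8% of 10553 transcripts, and among the 9 genes it stood once each in VIM, CDH2 and ZEB1 and 2 times in FN1. The seed match of si-RBCK1 #2 stood in 29.2% of the same transcripts, and among the 9 genes it stood once each in VIM and CDH2. FN1 and ZEB1, which matched only the seed of si-RBCK1 #1, were lower with that siRNA than with si-RBCK1 #2. Of the genes that held neither match, ZEB2 and SNAI2 were lower with si-RBCK1 #2, but SNAI1 was lower with si-RBCK1 #1. TWIST1, also without a match, differed little between the siRNAs, and CDH1 was near 0. VIM and CDH2, which held both matches, were lower with si-RBCK1 #2 than with si-RBCK1 #1. The shares are not matched for length, and the median transcript had 3437 nt, beside 8905 nt for FN1 and 6267 nt for ZEB1. A match is a description of letters, and its part in any level was not tested.

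The promoters of FN1 and ZEB1 are shown as examples of those that held motifs searched, and CDH2 and ZEB2 also held matches. That of VIM is shown because VIM was at least 2-fold higher with both siRNAs. They are RefSeq sequences of build GRCh38.p14, running from 250 bases before to 50 bases after a start site, and capitals mark motif matches.
VIM, chr10:17227991-17228290, plus strand: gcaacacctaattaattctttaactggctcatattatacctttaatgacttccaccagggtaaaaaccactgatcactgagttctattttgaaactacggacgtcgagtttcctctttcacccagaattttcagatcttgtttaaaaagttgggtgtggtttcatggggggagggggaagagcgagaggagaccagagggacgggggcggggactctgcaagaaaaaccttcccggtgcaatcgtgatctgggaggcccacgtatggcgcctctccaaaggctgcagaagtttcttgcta
FN1, chr2:215436019-215436318, minus strand: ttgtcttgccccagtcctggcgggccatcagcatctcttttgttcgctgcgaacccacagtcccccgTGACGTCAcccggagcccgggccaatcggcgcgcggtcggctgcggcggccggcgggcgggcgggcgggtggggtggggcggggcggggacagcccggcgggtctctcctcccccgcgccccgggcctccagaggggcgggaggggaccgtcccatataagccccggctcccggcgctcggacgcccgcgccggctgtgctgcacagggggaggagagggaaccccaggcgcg
ZEB1, the third of its listed starts, chr10:31318966-31319265, plus strand: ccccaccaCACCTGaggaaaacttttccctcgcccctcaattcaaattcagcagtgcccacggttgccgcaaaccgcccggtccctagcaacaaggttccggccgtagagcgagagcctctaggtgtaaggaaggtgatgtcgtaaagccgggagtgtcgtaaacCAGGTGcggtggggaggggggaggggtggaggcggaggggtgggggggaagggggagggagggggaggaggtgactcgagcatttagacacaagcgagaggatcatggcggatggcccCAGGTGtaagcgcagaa
The RefSeq table held 12 such promoters for 5 of the genes (VIM, CDH2, FN1, ZEB1 and ZEB2), and 7 of the 12 were starts of ZEB1. It held none for CDH1, SNAI1, SNAI2 and TWIST1. CACCTG or CAGGTG, the E-box bound by SNAI and ZEB proteins (each is the other on the opposite strand), was present in 2 of the 12, both of ZEB1, and in 20.6% of 35116 promoters in the table. The third ZEB1 start held it at positions -242, -85 and 34, counted from 1 at the start site with no position 0, and the first start held it at -57. The wider pattern CANNTG, which includes those letters, was present in 6 of the 12 promoters and in 68.7% of all. The FN1 promoter held TGACGTCA, the palindromic cyclic AMP response element, at -183, a match found in 1.85% of all promoters. The second CDH2 start held TATAAA at -32, found on either strand in 11.5% of all promoters. The VIM promoter held none of these. A match is not a binding site, and no match says only that the letters are missing from this window.

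RBCK1 itself (chr20:388694-412783, plus strand; coordinates of genes are those of the table, for which the submitters' processing notes name build hg19) had 33.3 RPKM in the si-Control library, 9.97 RPKM after si-RBCK1 #1 and 12.3 RPKM after si-RBCK1 #2. These levels were 29.9% and 36.8% of the control level. The libraries held 36926834, 40442939 and 36344428 reads in the order si-Control, si-RBCK1 #1 and si-RBCK1 #2, and all intervals below are 95% intervals from reads recovered from the RPKM values. They cover counting error only, and reads without molecular identifiers are not independent molecules.

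The renal label was checked against fixed markers. PAX8, a transcription factor of kidney tubules, was at 124, 82.5 and 107 RPKM. Keratins KRT8 and KRT18 were also abundant, while EPCAM stayed at or below 0.56 RPKM and CA9, PAX2 and LRP2 were near 0. Markers of other cells were low. The 10 fibroblast markers summed to 4.20 to 5.78 RPKM, most of it COL1A1, and 7 of them were under 0.1 RPKM in every library. All 6 endothelial markers were under 0.1 RPKM. Of 10 leukocyte markers 8 were under 0.1 RPKM, and their sum of 41.9 to 52.5 RPKM was nearly all CD68, a lysosomal protein gene, with PTPRC at or below 0.02 RPKM. In bulk RNA, fewer cells of a kind and less of a transcript per cell cannot be told apart.

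In every library FN1 and VIM were among the most abundant protein-coding transcripts, CDH2 was present and CDH1 was close to the limit of detection. With either siRNA, VIM, SNAI1 and TWIST1 were higher than with si-Control, and FN1, CDH2, ZEB1, ZEB2 and SNAI2 were lower. VIM was at least 2-fold higher with both siRNAs, whereas ZEB1 was the most reduced of the factors with si-RBCK1 #1 and ZEB2 and SNAI2 with si-RBCK1 #2. The EMT genes therefore did not share a direction.

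VIM (chr10:17270258-17279592, plus strand) encodes the intermediate filament protein of mesenchymal cells. Its level was 664 RPKM with si-Control, 1512 RPKM after si-RBCK1 #1 and 1392 RPKM after si-RBCK1 #2, from 52362, 130651 and 108055 reads. Both si-RBCK1 libraries were above si-Control, and the library with si-RBCK1 #1 was the highest. The fold of the read shares was 2.28 (interval 2.26 to 2.30) with si-RBCK1 #1 and 2.10 (2.07 to 2.12) with si-RBCK1 #2. On the log2(RPKM + 1) scale used for counting genes, the ratios were 1.19 and 1.07, and 1.62% and 2.00% of the 12403 genes that averaged 1 RPKM or more had a higher ratio. Among protein-coding genes VIM was the 78th most abundant transcript with si-Control, and it was at rank 23 with si-RBCK1 #1 and rank 24 with si-RBCK1 #2. Genes on the opposite strand overlap VIM. Of these, VIM-AS1 was at 1.25, 1.53 and 0.718 RPKM, so its reads were few beside those of VIM.

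FN1 (chr2:216225163-216300793, minus strand) encodes fibronectin, a secreted matrix glycoprotein that cells bind through integrins. It was at 2228 RPKM with si-Control, 1498 RPKM after si-RBCK1 #1 and 1762 RPKM after si-RBCK1 #2. Both si-RBCK1 libraries were below si-Control, at 67.2% and 79.1% of its level, and the log2 ratios of reads were -0.57 and -0.34. FN1 remained one of the most abundant protein-coding transcripts, at rank 13 with si-Control, 24 with si-RBCK1 #1 and 19 with si-RBCK1 #2. VIM and FN1, both mesenchymal markers, therefore moved in opposite directions. The level of VIM over that of FN1 within a library was 0.298 with si-Control, 1.01 with si-RBCK1 #1 and 0.790 with si-RBCK1 #2, with no overlap of the counting intervals. FN1 was the higher of the pair with si-Control and si-RBCK1 #2, while with si-RBCK1 #1 VIM was slightly the higher, at 1512 RPKM against 1498 RPKM.

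CDH2 (chr18:25530927-25757410, minus strand) encodes N-cadherin, a calcium-dependent adhesion protein of nerve, mesenchyme and renal tubule. Its level was 24.5 RPKM with si-Control, 17.7 RPKM after si-RBCK1 #1 and 15.9 RPKM after si-RBCK1 #2. It was lower with both siRNAs, at 72.0% and 64.7% of the control level, with log2 ratios of reads of -0.47 (-0.54 to -0.41) and -0.63 (-0.70 to -0.56). CDH1 (chr16:68771193-68869445, plus strand) encodes E-cadherin, the adhesion protein whose loss marks EMT. It was counted by 1 read with si-Control, 1 with si-RBCK1 #1 and 4 with si-RBCK1 #2, or 0.0055, 0.0051 and 0.0225 RPKM. The ratio of si-RBCK1 #2 to si-Control was 4.06, with an interval from 0.402 to 200, so a difference in CDH1 was not detectable at this depth. No fold is given for si-RBCK1 #1, since both counts were at or under the 3 counts that a count of 0 allows.

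SNAI1 (Snail; chr20:48599513-48605423, plus strand) encodes a zinc-finger repressor that starts EMT in development. It was at 5.63 RPKM with si-Control, 8.39 RPKM after si-RBCK1 #1 and 9.58 RPKM after si-RBCK1 #2. Both si-RBCK1 libraries were higher, by 1.49-fold (1.30 to 1.71) and 1.70-fold (1.49 to 1.95) in reads. Its relative SNAI2 (Slug; chr8:49830236-49833999, minus strand), a repressor of the same family, was at 3.83, 3.07 and 1.59 RPKM in the same order of libraries. SNAI2 was lower with both siRNAs, most with si-RBCK1 #2, at 80.0% and 41.5% of control, with log2 ratios of reads of -0.32 (-0.57 to -0.08) and -1.27 (-1.59 to -0.96). The interval for si-RBCK1 #1 came close to 0. SNAI1 over SNAI2 in level was 1.47 with si-Control, 2.74 with si-RBCK1 #1 and 6.03 with si-RBCK1 #2, and these 3 intervals did not overlap. SNAI1 was thus the more abundant of the pair in every library.

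ZEB1 (chr10:31607424-31818742, plus strand) and ZEB2 (chr2:145141942-145277958, minus strand) encode large zinc-finger homeobox repressors that act late in EMT. ZEB1 was at 7.75 RPKM with si-Control, 3.38 RPKM after si-RBCK1 #1 and 4.87 RPKM after si-RBCK1 #2. ZEB2 was at 8.72 RPKM with si-Control, 5.56 RPKM after si-RBCK1 #1 and 3.15 RPKM after si-RBCK1 #2. Both genes were lower with each siRNA, but the order of the siRNAs was opposite. ZEB1 was at 43.6% of control with si-RBCK1 #1 and 62.8% with si-RBCK1 #2, with log2 ratios of reads of -1.20 (-1.30 to -1.09) and -0.67 (-0.77 to -0.57). ZEB2 was at 63.7% and 36.1%, with log2 ratios of reads of -0.65 (-0.72 to -0.58) and -1.47 (-1.56 to -1.38). The level of ZEB1 over ZEB2 was 0.888 with si-Control, 0.608 with si-RBCK1 #1 and 1.55 with si-RBCK1 #2, so ZEB2 was the higher of the pair in the first 2 libraries and ZEB1 in the last. ZEB1-AS1, which starts beside ZEB1 on the opposite strand, was at 3.92 RPKM with si-Control and at 2.20 and 2.29 RPKM with the siRNAs. Whether the counting used strand is not given in the sources used here, so reads of such a pair may not be separate.

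TWIST1 (chr7:19155091-19157295, minus strand) encodes a basic helix-loop-helix factor of mesoderm and neural crest. It was at 3.71 RPKM with si-Control, 5.73 RPKM after si-RBCK1 #1 and 5.47 RPKM after si-RBCK1 #2. Both si-RBCK1 libraries were higher, by 1.55-fold (1.31 to 1.83) and 1.48-fold (1.24 to 1.75) in reads. SNAI1 over TWIST1 was 1.52, 1.46 and 1.75, and these intervals overlapped.

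**Figure D1:**
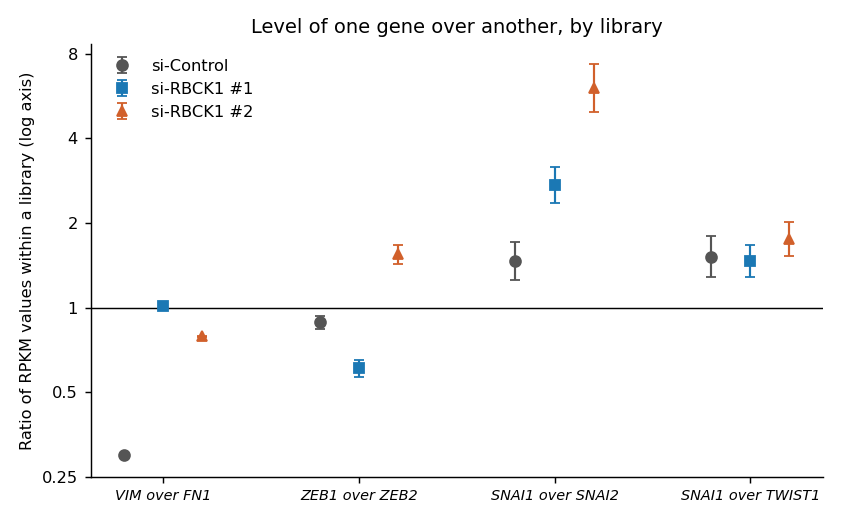
Level of the first-named gene over the second within each library (ratio of RPKM values, log axis), with 95% counting intervals. VIM over FN1 goes from 0.298 with si-Control to 1.01 and 0.790, ZEB1 over ZEB2 lies below 1 with si-Control and si-RBCK1 #1 and above 1 with si-RBCK1 #2, and SNAI1 over SNAI2 goes from 1.47 to 2.74 and 6.03.

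At this depth the counting intervals of most genes excluded 0, so they say little about size. The interval of the read ratio lay above 0 for 3 of the 8 and below 0 for 5 with each siRNA. Over all 12388 genes with recovered reads, it lay above 0 for 40.2% and below 0 for 37.5% with si-RBCK1 #1, and for 41.0% and 34.1% with si-RBCK1 #2. By size, VIM was the only one of the 8 at least 2-fold higher with si-RBCK1 #1 on the log2(RPKM + 1) scale, beside 2.91% of 12403 genes, and none was at least 2-fold lower, beside 3.27%. ZEB1 lay just outside that limit with si-RBCK1 #1, at -0.998. With si-RBCK1 #2, VIM was at least 2-fold higher, beside 2.50% of genes, and ZEB2 at least 2-fold lower at -1.23, beside 2.27%, while SNAI2 at -0.90 lay next outside.

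The pseudocount of 1 RPKM shrinks the ratios of the factors more than that of VIM. In reads without it, VIM was still the only gene of the 8 at least 2-fold higher, beside 5.21% of all genes with si-RBCK1 #1 and 4.88% with si-RBCK1 #2. ZEB1 was then at least 2-fold lower with si-RBCK1 #1, beside 6.26% of all genes. ZEB2 and SNAI2 were so with si-RBCK1 #2, beside 4.54%. The median log2(RPKM + 1) ratio of the 8 was -0.35 with si-RBCK1 #1 and -0.46 with si-RBCK1 #2, with all genes at 0.02 and 0.03. As the genes were picked with these ratios in view, nothing is read from those shares.

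The siRNA libraries were also compared with each other on reads, without si-Control. SNAI2 and ZEB2 differed most, at a log2 ratio of si-RBCK1 #2 over si-RBCK1 #1 of -0.95 (-1.27 to -0.63) and -0.82 (-0.92 to -0.73). ZEB1 lay on the other side, at 0.53 (0.41 to 0.64). FN1 was at 0.23 (0.23 to 0.24) and SNAI1 at 0.19 (0.02 to 0.36), while VIM was at -0.12 (-0.13 to -0.11) and CDH2 at -0.15 (-0.23 to -0.08). For TWIST1, at -0.07, the interval from -0.28 to 0.15 held 0. Thus 3 of the 8 were above 0 beyond counting error, beside 33.4% of all genes, and 4 below, beside 29.1%. RBCK1 itself was at 0.30 (0.20 to 0.39), and the part of its own level in these differences was not tested.

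The order of levels per length changed among the factors. With si-Control it ran FN1, VIM, CDH2, ZEB2, ZEB1, SNAI1, SNAI2, TWIST1 and CDH1, with overlapping intervals only for SNAI2 and TWIST1. With si-RBCK1 #1 it ran VIM, FN1, CDH2, SNAI1, TWIST1, ZEB2, ZEB1, SNAI2 and CDH1, where TWIST1 and ZEB2 overlapped, as did ZEB1 and SNAI2. With si-RBCK1 #2 it ran FN1, VIM, CDH2, SNAI1, TWIST1, ZEB1, ZEB2, SNAI2 and CDH1, where TWIST1 and ZEB1 overlapped. ZEB2 was therefore the most abundant factor with si-Control and SNAI1 with either siRNA.

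Among protein-coding genes within 2-fold of its si-Control level, the one nearest to VIM in both log2(RPKM + 1) ratios was HSP90AB1, a cytosolic chaperone gene, at a Euclidean distance of 0.33 over 126 candidates. HSP90AB1 was at 507, 1039 and 864 RPKM, so the nearest gene still had smaller ratios than VIM. Next was PKM, pyruvate kinase, at 631, 1090 and 1087 RPKM. FN1 had 28 candidates, and its nearest were SQSTM1, an autophagy receptor gene, and the mitochondrial CYTB. ZEB2 was nearest to ARNTL and NR1D1, both genes of the circadian clock, at distances of 0.08 and 0.15 over 4472 candidates. NR1D1 was at 14.5, 8.50 and 5.88 RPKM and ARNTL at 8.08, 4.83 and 2.96 RPKM, so both were lowest with si-RBCK1 #2. The other pairs were IFT80 and DYSF for ZEB1, TTF2 and BICD2 for SNAI1, KDM7A and C12orf73 for SNAI2, ZNF205 and RGL1 for TWIST1, and PROSER1 and QSER1 for CDH2. With a pair of ratios per gene, close neighbours are common among genes of low and middle level.

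The miR-200 family is known to repress ZEB1 and ZEB2 through several sites in their transcripts. Its loci were measured here only as reads at annotated genes in rRNA-depleted RNA, not in a small RNA library, so mature miRNA was not measured. The mature sequences (RefSeq, GRCh38.p14), with the seed in capitals, show that the family has a pair of seeds, and miR-200b-3p and miR-429 share one.
miR-200a-3p, chr1:1167916-1167937, plus strand: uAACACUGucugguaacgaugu
miR-200b-3p, chr1:1167160-1167181, plus strand: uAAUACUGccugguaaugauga
miR-429, chr1:1169055-1169076, plus strand: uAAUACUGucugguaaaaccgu
The match to the seed of miR-200a-3p, CAGTGTT, stood 7 times in the longest ZEB1 transcript and 7 times in that of ZEB2, and 2 times in FN1. The match to the shared seed, CAGTATT, stood 6 times each in ZEB1 and ZEB2, 3 times in FN1 and once in SNAI2. These letters stood at least once in 32.6% and 28.3% of 10553 transcripts, shares that are not matched for length. The transcripts of ZEB1 (6267 nt), ZEB2 (9583 nt) and FN1 (8905 nt) were longer than the median of 3437 nt. VIM, CDH1, CDH2, SNAI1 and TWIST1 held neither match. Of these, CDH1 (4889 nt) and CDH2 (4332 nt) were longer than the median, while VIM (2135 nt), SNAI1 (1686 nt) and TWIST1 (1666 nt) were shorter. At the 3 loci on chromosome 1, MIR200A had 0 reads with si-Control, 15 with si-RBCK1 #1 and 4 with si-RBCK1 #2. MIR200B had 1, 5 and 3 reads, and MIR429 had 7, 6 and 11 reads. Summed, the loci had 8, 26 and 18 reads, a ratio to si-Control of 2.97 (1.30 to 7.58) with si-RBCK1 #1 and 2.29 (0.946 to 6.08) with si-RBCK1 #2. The second interval held 1, so that difference was not detectable at this depth. MIR141, MIR200C and MIR205 were listed at 0 in all 3 libraries. The part of these loci in the ZEB1 and ZEB2 levels was not tested.

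Counts of list members at least 2-fold changed are given on the log2(RPKM + 1) scale, where the shares over all genes were 2.91% higher and 3.27% lower with si-RBCK1 #1 and 2.50% and 2.27% with si-RBCK1 #2. Counts in reads, added after seeing the data, stand beside them where they differ, against the larger shares in reads given above. Other factors of EMT were a mixed group. Of 13 other EMT-promoting transcription factors measured, 8 passed the level filter. With si-RBCK1 #1, 1 was at least 2-fold higher and 0 lower, and with si-RBCK1 #2, 1 was higher and 1 lower, with median log2(RPKM + 1) ratios of -0.10 and 0.05 beside 0.02 and 0.03 over all genes. SOX9, a factor of tubule repair and chondrocytes, was higher, at 7.01 RPKM with si-Control and 17.0 and 16.4 RPKM with the siRNAs. ETS1, the most abundant of the list, was lower, at 103, 53.6 and 46.6 RPKM, with ratios of -0.93 and -1.13. Of 12 factors of the epithelial state, such as the splicing regulators ESRP1 and ESRP2, 4 passed, and 0 was 2-fold changed with either siRNA. In reads, KLF5, a factor of epithelial proliferation, was at least 2-fold lower with si-RBCK1 #1, at 3.98 RPKM with si-Control, 1.77 RPKM after si-RBCK1 #1 and 2.78 RPKM after si-RBCK1 #2. ELF3, an epithelial ETS factor, was at 21.0, 18.7 and 22.7 RPKM.

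The next list mixed co-repressors and partners of SNAI and ZEB proteins with enzymes that regulate them. Of these 23 genes, 16 were above ZEB2, the highest of the factors with si-Control, in that library and 7 were not. Of the 23, 22 passed the level filter, and 0 was 2-fold changed with either siRNA on the log2(RPKM + 1) scale or in reads, with medians of 0.09 and -0.06. LOXL2, a lysyl oxidase that stabilizes Snail, was the most abundant, at 174, 129 and 144 RPKM. CSNK1D was next, at 78.2, 51.9 and 85.0 RPKM, and was lower only with si-RBCK1 #1. HDAC1, a histone deacetylase, was at 48.9, 59.1 and 54.6 RPKM. CTBP1, a corepressor that ZEB proteins bind, had log2(RPKM + 1) ratios of 0.16 and 0.23. CTBP2, also on the list, was lower, at 24.4, 13.0 and 14.5 RPKM, with ratios of -0.86 and -0.71. AJUBA was lower too, with ratios of -0.91 and -0.85. Of the 22, 12 were above 0 with si-RBCK1 #1 and 10 with si-RBCK1 #2, beside 51.5% and 53.5% of all genes. The other 10 and 12 were below 0.

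Among 22 classical and related cadherins, 12 were under 0.1 RPKM in every library and 5 passed the filter. CDH2 and CDH13 were the leading cadherins, with CDH13, a GPI-anchored cadherin, at 22.1, 13.9 and 16.0 RPKM. CDH6, a cadherin of the renal tubule, was higher, at 0.866 RPKM with si-Control, 3.53 RPKM after si-RBCK1 #1 and 2.86 RPKM after si-RBCK1 #2. Its log2 ratios of reads were 2.03 (1.84 to 2.22) and 1.72 (1.53 to 1.92), but it stayed under CDH2 in each library. CDH6 passed the filter only through the si-RBCK1 libraries, so its place among the 5 rests on the difference itself. The other 4 were within 2-fold on the log2(RPKM + 1) scale, although CDH24 was at least 2-fold higher in reads with si-RBCK1 #2, at 1.27, 2.12 and 3.28 RPKM. The medians of the 5 were -0.33 and -0.25. Of 13 adherens junction genes 8 passed, 0 was 2-fold changed, and the medians were -0.36 and -0.15. The catenins that link cadherins to actin were abundant, with CTNNA1 at 139, 112 and 124 RPKM and CTNNB1 at 71.3, 85.9 and 85.6 RPKM. Of 13 desmosome genes 7 passed, 0 was 2-fold changed on that scale, and the medians were -0.37 and -0.14. PKP2, a plakophilin, was at 3.83, 1.82 and 2.19 RPKM, at least 2-fold lower in reads with si-RBCK1 #1. DSG2, a desmosomal cadherin, was at 37.0, 23.5 and 33.4 RPKM.

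Of 15 non-keratin intermediate filament genes, 5 passed, VIM among them. SYNM, synemin, a partner of vimentin filaments, passed only through the si-RBCK1 libraries, at 0.420, 1.48 and 1.61 RPKM. The other 3 were nuclear lamina genes, and each was higher with both siRNAs. Taking each siRNA alone, 51.5% of all genes were higher with si-RBCK1 #1 and 53.5% with si-RBCK1 #2. The share higher with both was not counted. The lamin genes LMNA (91.4, 158 and 189 RPKM), LMNB1 (7.62, 17.4 and 23.9 RPKM) and LMNB2 (16.7, 32.9 and 34.0 RPKM) had log2(RPKM + 1) ratios of 0.79 to 1.10 with si-RBCK1 #1 and 0.99 to 1.53 with si-RBCK1 #2, and LMNB1 was at least 2-fold higher with both siRNAs. Of the 5, 2 were at least 2-fold higher with si-RBCK1 #1 and 3 with si-RBCK1 #2 on that scale, and 0 was lower. In reads, 3 were at least 2-fold higher with si-RBCK1 #1 and 5 with si-RBCK1 #2. SYNM was among these only in reads, and its place rests on the difference itself. The median of the 5 was 0.94 and 1.04, and over the whole list with no filter it was 0.20 and 0.16. KRT8, a keratin of simple epithelia, was also higher, at 65.6 RPKM with si-Control, 172 RPKM after si-RBCK1 #1 and 238 RPKM after si-RBCK1 #2, with log2(RPKM + 1) ratios of 1.38 and 1.84. Its partner KRT18 was at 95.3, 142 and 172 RPKM. VIM over KRT8 in level was 10.1, 8.80 and 5.84, so the keratin was higher by a larger factor than vimentin with both siRNAs. Over all 16 renal epithelial markers, 8 passed, 2 (KRT8 and CDH6) were at least 2-fold higher with each siRNA, 0 was lower on the log2(RPKM + 1) scale, and the medians were -0.41 and 0.04. CDH6 passed only through the si-RBCK1 libraries, so its place in that count and in the medians rests on the difference itself. In reads, 3 of the 8 were at least 2-fold lower with si-RBCK1 #1 (KRT7, NDUFA4L2 and MME) and 2 with si-RBCK1 #2 (KRT7 and NDUFA4L2). KRT7, another simple-epithelial keratin, was at 2.07, 0.944 and 0.792 RPKM. NDUFA4L2, a hypoxia-induced mitochondrial protein gene, was at 2.12, 0.645 and 0.741 RPKM. Both passed the filter only through the si-Control library, so their places in the count of lower genes rest on the difference itself. KRT19, a further keratin, did not pass and was higher, at 0.423, 0.975 and 1.38 RPKM. Only KRT7 of the listed keratins was lower, so the keratins did not share a direction. The summed level of the 16 markers was 315, 423 and 550 RPKM, and its rise lay mainly in KRT8 and KRT18. PAX8, the most abundant of the list with si-Control, was lower, at 124, 82.5 and 107 RPKM. Of the 8 that passed, 3 were higher and 5 lower with si-RBCK1 #1, and 4 were higher and 4 lower with si-RBCK1 #2. The sum is therefore not a rise of the markers as a group, and the part of these markers in the VIM difference was not tested.

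**Figure D2:**
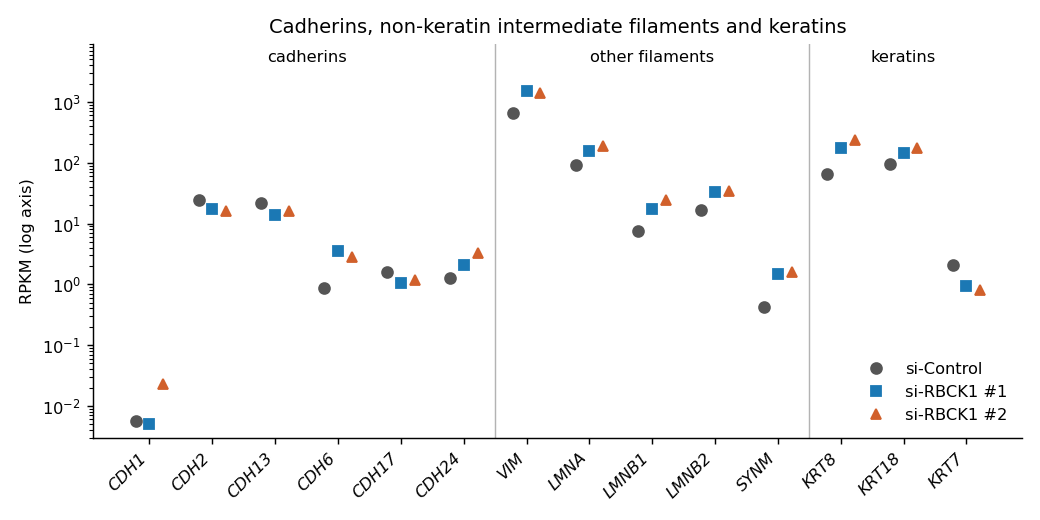
RPKM (log axis) of cadherins, non-keratin intermediate filament genes and keratins, 1 point per library. All 5 filament genes drawn, KRT8 and KRT18 are higher with each siRNA than with si-Control, KRT7 is lower, and CDH2 and CDH13 are lower while CDH6 is higher but stays below CDH2.

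Mesenchymal markers other than VIM, FN1 and CDH2 were split. Of 28 such genes, 18 passed, 0 was 2-fold changed with si-RBCK1 #1, and 1 was higher (TAGLN) and 2 lower (TNC among them) with si-RBCK1 #2, with medians of -0.15 and -0.02. In reads the counts were 2 higher and 0 lower with si-RBCK1 #1 and 1 higher and 3 lower with si-RBCK1 #2. TGFBI, a matrix protein induced by TGF-beta, was at 284, 362 and 302 RPKM. SPARC, another matrix glycoprotein, was at 152, 304 and 199 RPKM and lay just inside 2-fold with si-RBCK1 #1, at a log2(RPKM + 1) ratio of 0.997. CD44, the hyaluronan receptor, was at 154, 240 and 228 RPKM. Fibronectin's receptors and matrix partners were also mixed. Of 17 genes 16 passed, with 0 higher and 1 lower with si-RBCK1 #1, 0 higher and 2 lower with si-RBCK1 #2, and medians of -0.24 and -0.01. In reads the counts were 0 and 2 with si-RBCK1 #1 and 1 and 2 with si-RBCK1 #2. FNDC3B, a gene with fibronectin type III domains that is not a fibronectin receptor, was at 84.0, 40.0 and 30.8 RPKM. It was at least 2-fold lower with both siRNAs and was the 1 lower gene with si-RBCK1 #1 on the log2(RPKM + 1) scale. ITGB1, the beta subunit of the fibronectin receptor integrins, was the most abundant, at 679, 419 and 583 RPKM, and like FN1 it was lower with both siRNAs and lowest with si-RBCK1 #1. ITGA5, its alpha partner in that receptor, was at 51.9, 73.0 and 57.1 RPKM, so the subunits did not move together.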

How the data were processed

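RNA was measured in 3 Caki-1 libraries, 1 per condition, grouped by the sample titles. The authors deposited 1 table of RPKM values per gene. Submitters' processing notes name FastQC, Trimmomatic, TopHat2, HTSeq and build hg19, and settings, annotation and strand use are not given in the sources used here. Sample records describe ribosomal RNA removal and a directional kit, whereas the methods name another sequencing provider. The table's columns of the authors' own comparison (control and treated values, fold change, p and q) were not used. RPKM values are not counts and there was no replicate, so no test was run.

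The genes and lists were chosen with earlier results of these data known, and the motif, siRNA and miR-200 searches after the values were seen. Ratios were log2((siRNA RPKM + 1)/(si-Control RPKM + 1)) over 12403 genes averaging 1 RPKM or more. 1 entry that is not a number was left out. Library totals came from RNAs of up to 200 nt, and each gene's reads are the smallest whole numbers (within 0.002 reads) that its 3 RPKM values allow for a length of up to 50000 nt. Whole reads resulted for 12388 genes (99.9%). For the 9 genes the implied lengths (VIM 2136 nt, ZEB1 7893 nt) were of the size of their transcripts. Ratio intervals are exact Clopper-Pearson and level intervals exact Poisson, both 95%. The steps were tested on simulated data.

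Named genes are the 9, RBCK1, list members at least 2-fold changed with both siRNAs or with the highest si-Control level (up to 4 a list), and the 2 protein-coding genes nearest to each of the 8. Others named as list examples (TAGLN, TNC, SYNM, ITGA5, CTBP2, AJUBA, KRT7, KRT19, NDUFA4L2, MME, EPCAM, CA9, PAX2, LRP2, PTPRC) were chosen after their values were seen. Alternatives were pseudocounts of 0.1 and 5 RPKM, equal medians or totals, a filter at an average of 5 RPKM or none, limits of 1.5-fold and 4-fold, protein-coding genes only, and, added after seeing the data, reads without a pseudocount. Some list members are not reported here. The software was Python 3.11.15 with scipy 1.17.1, pandas 2.3.3, numpy 2.4.6 and matplotlib 3.10.9.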

Additional observations from a re-analysis of the deposited data

How the results depend on the processing

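No paired analysis was possible because there was 1 library in each group, and for the same reason no replicate could be left out. Of 80 values of the log2 ratios of the 9 genes and RBCK1 under other pseudocounts and scalings, 58 moved by less than their counting interval, 22 moved by more and 0 changed sign. The number of genes at least 2-fold changed was 766 with si-RBCK1 #1 and 591 with si-RBCK1 #2. It became 1346 and 1085 with a pseudocount of 0.1 RPKM, 219 and 198 with 5 RPKM, 455 and 391 with a mean of at least 5 RPKM, 2934 and 2556 at 1.5-fold, 47 and 31 at 4-fold, and 1421 and 1167 on reads without a pseudocount. Of the 8 EMT genes, 1 with si-RBCK1 #1 and 2 with si-RBCK1 #2 were 2-fold changed. With si-RBCK1 #1, ZEB1 made it 2 with a pseudocount of 0.1 RPKM, with equal medians, with equal totals and on reads, since it lies just outside the limit. The count was 2 at 1.5-fold and 0 at 4-fold. With si-RBCK1 #2, SNAI2 made it 3 with a pseudocount of 0.1 RPKM and on reads. It was 1 with a pseudocount of 5 RPKM, 5 at 1.5-fold and 0 at 4-fold. The median of the EMT genes with si-RBCK1 #1 was -0.35, and -0.51 with a mean of at least 5 RPKM. With si-RBCK1 #2 it was -0.46, and -0.35 with a pseudocount of 5 RPKM, -0.50 with equal medians and -0.34 with no filter. The CACCTG or CAGGTG share of promoters was 17.7% among the filtered genes.

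Of 120 alternative values of list medians, 84 stayed close, 23 moved and 13 changed sign. With no filter, the cadherin medians became 0.0034 and 6.6e-05, those of the adherens junction genes 0.014 and 0.017, that of the renal epithelial markers 0.014 and -0.0044, that of other EMT factors with si-RBCK1 #2 -0.025 and that of desmosome genes with si-RBCK1 #2 0.00011, since genes close to 0 RPKM then enter. The non-keratin filament medians fell in the same way, to 0.20 and 0.16. With a mean of at least 5 RPKM, the renal epithelial median with si-RBCK1 #1 became 0.16 and the mesenchymal one 0.013. The epithelial-state median with si-RBCK1 #1 became -0.014 with a pseudocount of 5 RPKM and -0.0089 with equal totals, and the renal epithelial one with si-RBCK1 #2 became -0.0022 with equal medians. For the other changes the cause was not tested. Depth limits CDH1 and the miR-200 loci, which have few reads.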
